A study of Ovis aries with 8 samples.

Results

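The YAP and TEAD genes described here are 10 genes picked by name from an expression array study of fetal sheep (Ovis aries) pulmonary artery endothelial cells, which line the arteries that carry blood from the heart to the lungs. They comprise the coactivator genes YAP1 and WWTR1 (which encodes TAZ), the DNA-binding partner genes TEAD1, TEAD2 and TEAD4, and the target or feedback genes CTGF (now CCN2), CYR61 (now CCN1), ANKRD1, AMOTL1 and AMOTL2. All 10 were found, each as 1 row, among the 15380 rows of the table, 14577 of which remained as genes with a symbol. The choice used names and no measured value. The study compared 4 control cultures from near-term fetuses, labelled normothermic, with 4 cultures of growth-restricted fetuses (intrauterine growth restriction, IUGR), labelled hyperthermic, on 1 single-colour array each. Every culture was grown in DMEM with 10% fetal bovine serum, and each title gives its own animal identifier. The titles put the controls at passage 5 or 6 and the IUGR arrays at passage 3 or 4, so growth restriction, hyperthermia and passage cannot be told apart.

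YAP and TAZ are coactivators that carry no DNA-binding domain of their own and reach their target genes through the TEAD transcription factors. When the kinase cascade of the Hippo pathway is active, LATS kinases phosphorylate them and they are kept in the cytoplasm or degraded. Stretch, a stiff substrate and spread cell shape move them into the nucleus, and in endothelial cells they are known for roles in vessel sprouting, junctions and the response to blood flow.

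The cultures differed in the cell type markers they carried. The summed intensity of 12 measured endothelial markers was 4643 to 11249.7 in control arrays and 217 to 5394 in IUGR arrays. In IUGR replicates 2 and 4, with sums of 284 and 217, 4 of the 12 lay at or below 10.8 intensity units, the 95th percentile of 127 olfactory receptor rows used as a background level, against 0 in every other array. CDH5, the VE-cadherin gene of endothelial junctions, was 7.20 and 11.2 there and 213 to 2012 in the other 6 arrays. The summed intensity of 12 fibroblast markers ran from 923 to 1866 in control replicates 1 to 3. It was 15913.5 in control replicate 4 and from 11756 to 24196 in IUGR. Of the mesothelial and simple epithelial list, 9 markers were measured. Their sum was 11359.5 and 16749 in IUGR replicates 2 and 4 and 181 to 517 elsewhere, where WT1, a mesothelial transcription factor, lay below the background level. The 7 smooth muscle markers summed to 1092 to 14828 in control and 1347 to 8600.0 in IUGR, and the 6 leukocyte markers to 498 to 1449 and 219 to 1194. Of these 6, LAPTM5 alone was 309 to 1087 in control and 9.80 to 987 in IUGR. The leukocyte markers PTPRC and TYROBP lay at or below the background level on every array. In such cultures, fewer cells of a type and less RNA per cell cannot be told apart. The part of these markers in the results on single genes was not tested unless a value is given.

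All 10 genes lay above the olfactory receptor level on every array. The TAZ gene WWTR1 was lower in value in IUGR cultures, and TEAD1 and ANKRD1 were higher in value. YAP1 itself, the other TEAD members and the 4 remaining genes overlapped between the groups with smaller differences. None of the 10 passed limma's test at an adjusted p of 0.05 over 14577 genes, a threshold that 10 genes (0.0686%) passed, 0.0412% higher and 0.0274% lower. At an unadjusted p under 0.05 there were 3 of 10, 2 higher and 1 lower, against 15.9% of all genes, 8.20% higher and 7.68% lower. The groups did not overlap for 2 of 10, 1 higher and 1 lower, against 8.65% of all genes, 4.53% higher and 4.12% lower. The median difference of the 10 was -0.06 on the log2 scale against 0.00 over all genes, and their median absolute difference was 0.39 against 0.22.

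**Figure D1:**
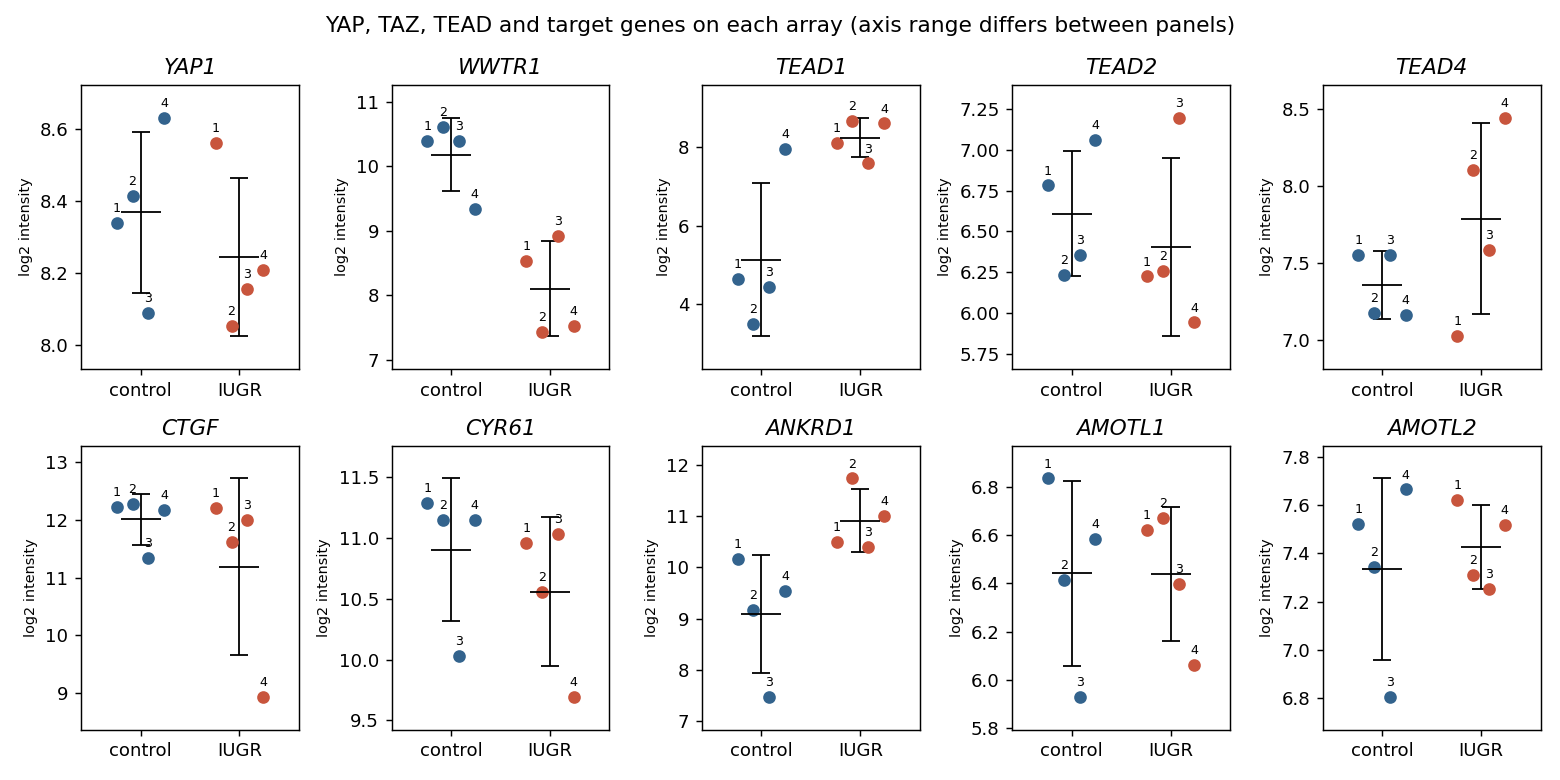
Log2 intensity of each of the 10 genes (vertical axis, range differs between panels) in control and IUGR cultures; each point is 1 array, numbered by replicate, and bars show the mean and SD of 4 arrays. WWTR1 and ANKRD1 are the 2 genes whose groups do not overlap, and control replicate 4 lies with the IUGR arrays for TEAD1.

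YAP1, the coactivator gene of the pathway, was 324, 341, 272 and 397 intensity units in control replicates 1 to 4. In IUGR replicates 1 to 4 it was 378, 266, 285 and 296. The groups overlapped, and the highest array held 1.49 times the intensity of the lowest. The difference, IUGR minus control on the log2 scale, was -0.12 ± 0.15 (SE), with a 95% confidence interval from -0.48 to 0.24 (limma, adjusted p = 0.754). The standard deviation over the 8 arrays was 0.22, below that of most genes (median 0.34).

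WWTR1 encodes TAZ, the paralogue of YAP that binds TEAD in the same way. It was 1340.1, 1562, 1344 and 647 intensity units in control replicates 1 to 4. In IUGR replicates 1 to 4 it was 371, 173, 484 and 184. Every IUGR array lay below every control array, with control replicate 4 the lowest control and IUGR replicates 2 and 4 the lowest of all. On the log2 scale the means were 10.18 ± 0.57 (SD, n = 4) and 8.10 ± 0.74 (SD, n = 4). The difference was -2.08 ± 0.44 (SE), a geometric mean 4.22-fold lower in IUGR. It did not pass over all genes (limma, unadjusted p = 0.00212, adjusted p = 0.116).

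The WWTR1 difference depended in its call on control replicate 4, the control with high fibroblast markers. Without that array it was -2.36 (limma, adjusted p = 0.0492), a setting in which 369 genes passed in all. Without control replicate 4 and IUGR replicates 2 and 4 it was -1.74 (adjusted p = 0.0375), among 325 genes that passed. Without IUGR replicates 2 and 4 alone it was -1.45 (adjusted p = 0.305). WWTR1 was highest in control replicates 1 to 3 and lowest in IUGR replicates 2 and 4, as the endothelial markers were. The mean centred log2 value of those markers was 1.51, 1.90, 1.66 and 0.61 in control replicates 1 to 4 and -0.38, -2.92, 0.77 and -3.15 in IUGR replicates 1 to 4. IUGR replicate 3 had a higher score than control replicate 4 but a lower WWTR1, at 484 against 647 intensity units. With this score as a covariate the WWTR1 difference was -0.85 (limma, unadjusted p = 0.0228, adjusted p = 0.600). The score was itself mostly lower in IUGR, so this fit cannot separate the markers from the group, and a cause was not tested. With passage as a covariate the WWTR1 difference was -3.54 (unadjusted p = 0.0346, adjusted p = 0.585). The passages of the groups did not overlap, so this fit, here and for the genes below, extrapolates and cannot separate passage from group.

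**Figure D2:**
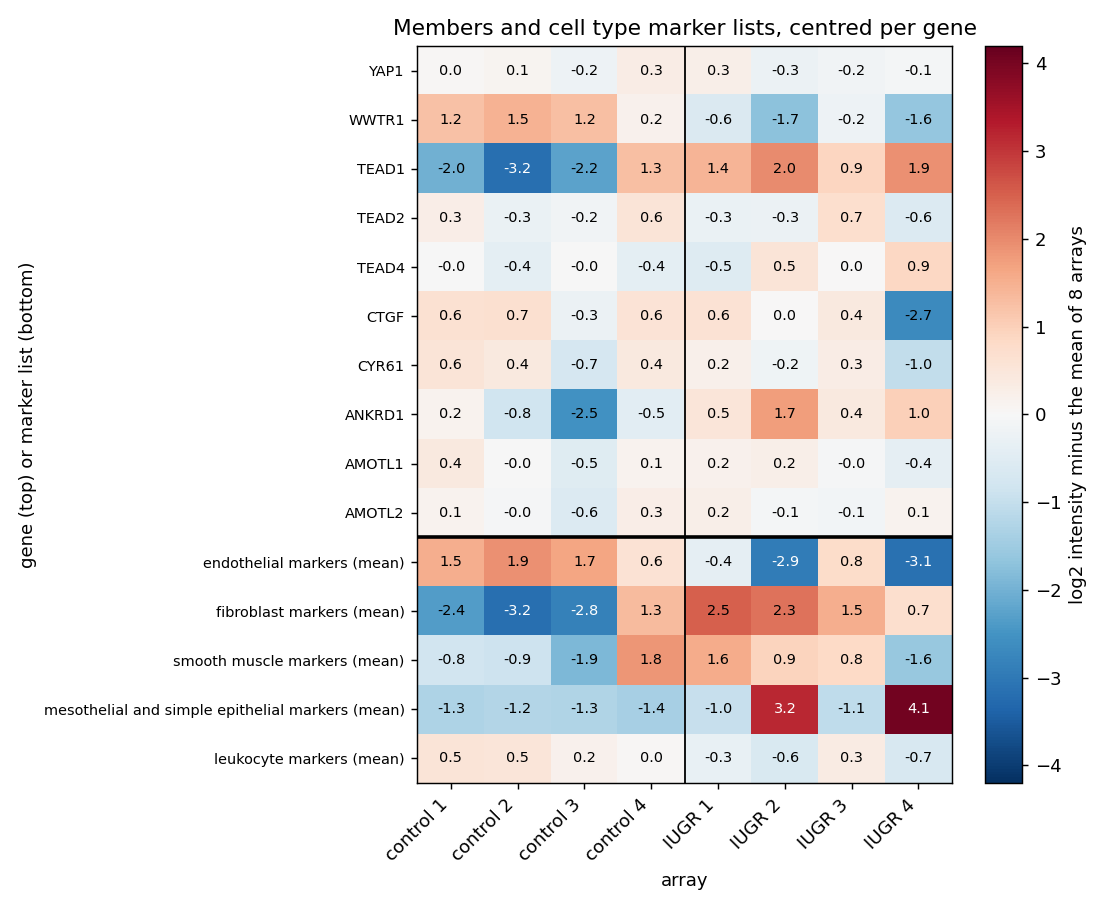
Log2 intensity minus the gene's mean over the 8 arrays (colour and printed values) for the 10 genes, above the mean of the same quantity over each of 5 cell type marker lists. WWTR1 is highest in control replicates 1 to 3 and lowest in IUGR replicates 2 and 4, as the endothelial markers are, and TEAD1 is low in control replicates 1 to 3, as the fibroblast markers are.

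The TEAD genes did not behave alike. TEAD1, a DNA-binding partner of YAP and TAZ found in many tissues, was 25.2, 11.3, 21.7 and 247 intensity units in control replicates 1 to 4. In IUGR replicates 1 to 4 it was 275, 403, 190.5 and 386. Control replicates 1 to 3 were low, and control replicate 4 lay within the IUGR range, so the groups overlapped. The log2 means were 5.14 ± 1.94 (SD, n = 4) and 8.23 ± 0.50 (SD, n = 4), and the difference was 3.10 ± 0.93 (SE; limma, unadjusted p = 0.0130, adjusted p = 0.191). TEAD1 had a 35.6-fold range over the 8 arrays, the widest of the 10 genes.

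Without control replicate 4 the TEAD1 difference was 4.03 (limma, adjusted p = 0.0127). Without this array and IUGR replicates 2 and 4 it was 3.64 (adjusted p = 0.0536), and without IUGR replicates 2 and 4 alone 2.70 (adjusted p = 0.493). The fibroblast marker score was -2.36, -3.16, -2.85 and 1.34 in control replicates 1 to 4 and 2.51, 2.28, 1.52 and 0.71 in IUGR replicates 1 to 4. TEAD1 and this list were thus both low in control replicates 1 to 3 and high in the other 5 arrays. Within those 5 the order differed. TEAD1 was highest in IUGR replicates 2 and 4, the arrays with high mesothelial markers, while the fibroblast score was highest in IUGR replicate 1 and lowest in IUGR replicate 4. With passage as a covariate the difference was 4.60 (unadjusted p = 0.178), and with the endothelial score as a covariate it was 1.66 (unadjusted p = 0.258).

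TEAD2 was 110.0, 75.2, 81.8 and 134 intensity units in control and 74.7, 76.4, 147 and 61.5 in IUGR replicates 1 to 4. The groups overlapped and the log2 difference was -0.20, with a 95% confidence interval from -0.95 to 0.54 (limma, adjusted p = 0.818). TEAD4 was 187, 144, 188 and 143 intensity units in control and 130.2, 275, 192 and 348 in IUGR. Its highest values were in IUGR replicates 2 and 4, the arrays with mesothelial markers, while the other 2 IUGR arrays lay at or near the control values. The log2 difference was 0.43, with a 95% confidence interval from -0.30 to 1.16 (limma, adjusted p = 0.553), and without IUGR replicates 2 and 4 it was -0.06. TEAD3, the remaining gene of the family and not among the 10, was named after its values were seen. It was 38.5, 34.0, 17.0 and 278 in control and 291, 250.4, 198 and 217 in IUGR, low in control replicates 1 to 3 as TEAD1 was. Its log2 difference was 2.24 ± 0.81 (SE; limma, adjusted p = 0.257).

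**Figure D3:**
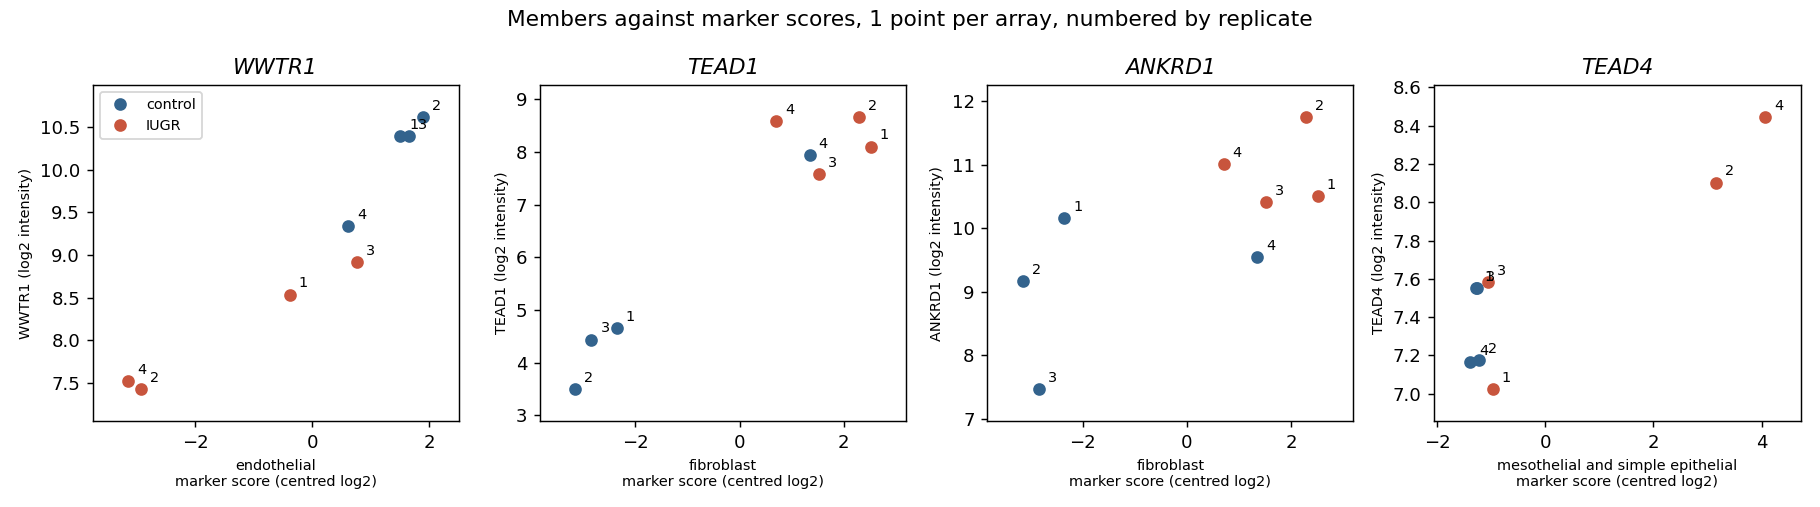
Log2 intensity of WWTR1, TEAD1, ANKRD1 and TEAD4 (vertical axes) against the score of 1 marker list (horizontal axes, mean centred log2 intensity), with 1 point per array, numbered by replicate. The list is endothelial for WWTR1, fibroblast for TEAD1 and ANKRD1, and mesothelial and simple epithelial for TEAD4. No rule set these pairings in advance. The 2 IUGR arrays with the lowest endothelial score have the lowest WWTR1, control replicate 4 lies beside the IUGR arrays for fibroblast markers and TEAD1, and TEAD4 is highest in the 2 arrays with a high mesothelial score.

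The target genes went different ways. CTGF, a secreted matricellular protein and a standard readout of YAP and TAZ activity, was 4797, 4975, 2605 and 4594 intensity units in control replicates 1 to 4. In IUGR replicates 1 to 4 it was 4736, 3145, 4104 and 490.3. IUGR replicate 4 stood alone, and the other 3 IUGR arrays lay within the control range. The log2 difference was -0.81 ± 0.74 (SE), with a 95% confidence interval from -2.56 to 0.94 (limma, adjusted p = 0.656), and it was -0.062 without IUGR replicate 4 and 0.10 without IUGR replicates 2 and 4.

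CYR61, the other matricellular target, was 2495, 2261, 1044 and 2262 intensity units in control and 1985, 1503, 2089 and 828 in IUGR replicates 1 to 4. Control replicate 3 and IUGR replicate 4 were the lowest arrays, and the groups overlapped. The log2 difference was -0.34, with a 95% confidence interval from -1.28 to 0.60 (limma, adjusted p = 0.736). It was -0.054 without IUGR replicate 4 and -0.63 without control replicate 3. CTGF was also lowest in these 2 arrays.

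ANKRD1 encodes an ankyrin repeat protein of muscle and stressed cells and is a common YAP target. It was 1145, 576, 177 and 748 intensity units in control replicates 1 to 4. In IUGR replicates 1 to 4 it was 1457, 3426, 1360.5 and 2068. Every IUGR array lay above every control array, with control replicate 3 the lowest. IUGR replicate 2 was the highest and IUGR replicate 4 the next, the arrays with high mesothelial markers. The log2 means were 9.09 ± 1.15 (SD, n = 4) and 10.92 ± 0.61 (SD, n = 4). The difference was 1.83 ± 0.61 (SE), a geometric mean 3.56-fold higher in IUGR (limma, unadjusted p = 0.0198, adjusted p = 0.223). Without control replicate 3 it was 1.29 (adjusted p = 0.313), without IUGR replicate 2 it was 1.56 (unadjusted p = 0.0530), and without IUGR replicates 2 and 4 it was 1.37 (adjusted p = 0.552). With passage or the endothelial score as a covariate it was 1.41 (unadjusted p = 0.507) or 0.99 (unadjusted p = 0.309).

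AMOTL1 and AMOTL2 encode angiomotin-like proteins of cell junctions that bind YAP and hold it out of the nucleus, and AMOTL2 is also a YAP target. AMOTL1 was 114, 85.3, 60.9 and 96.1 intensity units in control and 98.5, 102, 84.4 and 66.8 in IUGR replicates 1 to 4. AMOTL2 was 184, 162, 112 and 203 in control and 197, 159, 152 and 183 in IUGR. Both were lowest in control replicate 3 and overlapped between the groups. The log2 differences were -0.003 for AMOTL1 (95% confidence interval from -0.53 to 0.53) and 0.09 for AMOTL2 (95% confidence interval from -0.38 to 0.56), with adjusted p-values in limma of 1.00 and 0.886.

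**Figure D4:**
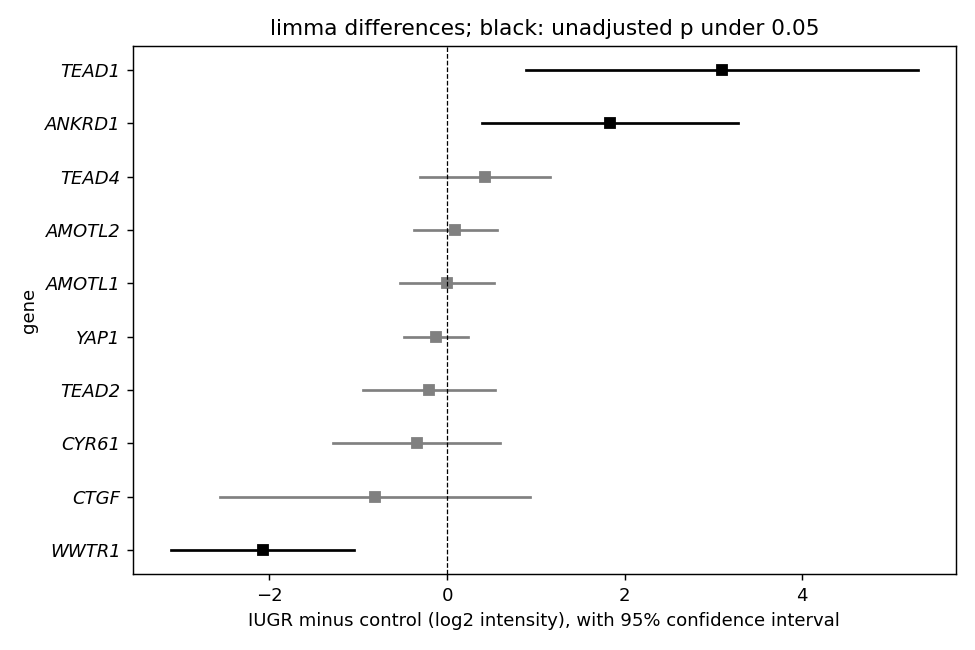
IUGR minus control on the log2 scale (horizontal axis) for the 10 genes (vertical axis, ordered by difference), from the limma fit over 14577 genes; squares are estimates, lines are 95% confidence intervals, and black marks an unadjusted p under 0.05. The interval lies below 0 for WWTR1, above 0 for ANKRD1 and TEAD1, and spans 0 for the other 7 genes.

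The 10 genes also differed in how much they varied between cultures. Over the 8 arrays, TEAD1, ANKRD1, WWTR1 and CTGF had a 35.6-fold, 19.3-fold, 9.03-fold and 10.1-fold range of intensity. Those of CYR61, TEAD4, TEAD2, AMOTL1, AMOTL2 and YAP1 ran from 3.01-fold down to 1.49-fold. Between the centred log2 profiles of any pair, the smallest root mean square difference was 0.18, for YAP1 and AMOTL2, followed by 0.24 for AMOTL1 and AMOTL2. The largest was 3.10, for TEAD1 and WWTR1, with WWTR1 highest in the 3 arrays where TEAD1 was lowest. CTGF and CYR61 were 0.63 apart, and ANKRD1 was 1.78 from CTGF and 1.31 from CYR61. The profiles were not scaled by their spread. Genes that vary little therefore lie close together whatever their pattern, and genes that vary much can lie far apart.

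By the same measure, WWTR1 was most like IL13RA1, an interleukin receptor chain (0.19), LMO2, a transcription cofactor of blood and endothelial lineages (0.28), and RCSD1 (0.33), among 7288 other genes at or above the median level. IL13RA1 was 1112.6 to 1955 intensity units in control and 223 to 814 in IUGR. The genes most like ANKRD1 were LTBP2, a matrix protein of the latent TGF-beta binding family (0.43), VGLL3, a TEAD cofactor (0.46), and PDLIM4, an actin-associated PDZ and LIM protein (0.51). For CTGF they were the growth factor gene BMP6 (0.29), TGFB1I1, the focal adhesion adaptor Hic-5 (0.29), and the transcription factor gene ZEB2 (0.35). All 3 were lowest in IUGR replicate 4, at 15.8, 30.0 and 42.5 intensity units. CYR61 was most like TMEM59L (0.17), FNDC3B (0.20) and the integrin chain gene ITGAV (0.26), and YAP1 was most like GPBAR1 (0.10), THYMB4X (0.10) and ISCU (0.11). Because YAP1 varied little, its closeness to other genes of small spread says little of a shared pattern.

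The wider pathway was followed with 6 lists holding 105 genes, of which 93 were measured. The tissue factor gene F3, which starts blood coagulation, was the 1 gene that passed over all genes. At an unadjusted p under 0.05 there were 21, 14 higher and 7 lower (22.6% against 15.9% of all genes), and the groups did not overlap for 8 of 93, against 8.65% of all genes. The median difference over the 93 was 0.20 on the log2 scale, against 0.00 over all genes.

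The Hippo kinases and adaptors differed little between the groups. Of 11 measured, 8 were higher and 3 lower in value, and 1 had an unadjusted p under 0.05 (9.09% against 15.9% of all genes). This was MAP4K4, a kinase that can activate LATS, at 342, 249, 369 and 339 intensity units in control and 206, 266, 205 and 203 in IUGR (log2 difference -0.56 ± 0.15, SE; limma, adjusted p = 0.163). MOB1B, a LATS coactivator, LATS1 and STK3, which encode kinases of the cascade, differed by 0.28, 0.24 and 0.21. LATS2, the other LATS kinase gene, named after its values were seen, differed by 0.04. The list's differences ran from -0.56 to 0.34, with a median of 0.18.

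Upstream scaffold and polarity genes spread more widely, from -2.39 to 4.09, with 7 of 18 higher and 11 lower in value. The upper end was FAT1, which lay below the floor in control replicates 1 to 3, so its size depends on the floor. NF2, whose product merlin recruits LATS to the membrane, was 63.7 to 79.3 intensity units in control and 87.2 to 109.7 in IUGR, with no overlap between the groups. Its log2 difference was 0.46 ± 0.10 (SE; limma, unadjusted p = 0.00236, adjusted p = 0.116). WWC3, a WW-domain scaffold of the pathway, was 148 to 198 in control and 36.6 to 125 in IUGR, also without overlap (-1.16 ± 0.41, SE; adjusted p = 0.243). DCHS1, a giant cadherin and ligand of FAT4, was 75.3, 75.8, 61.9 and 27.4 in control and 19.0, 14.2, 30.9 and 9.91 in IUGR. Its difference was -1.72 (adjusted p = 0.162). WWC1, the KIBRA gene, was 175 and 218 in IUGR replicates 2 and 4, where the mesothelial markers were high, and 13.9 to 41.0 in the other 6 arrays. Its log2 difference was 1.89 (adjusted p = 0.309). Of the 18, 2 higher and 2 lower had an unadjusted p under 0.05 (22.2% against 15.9% of all genes).

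Inhibitors and partners of YAP, TAZ and TEAD were higher in value for 14 of 18, and 5 higher and 0 lower had an unadjusted p under 0.05 in limma. This was 27.8% against 15.9% of all genes, 8.20% higher and 7.68% lower, and 0 of the 18 passed the adjusted threshold. RUNX2, a bone transcription factor that binds YAP and TAZ, was 5.31, 6.66, 7.76 and 65.7 intensity units in control replicates 1 to 4. In IUGR replicates 1 to 4 it was 147, 199, 213 and 98.0. Control replicates 1 to 3 lay below the olfactory receptor level, and all IUGR arrays lay above control replicate 4. The log2 difference, with values raised to the floor of 5.89 units, was 3.72 ± 0.81 (SE; limma, adjusted p = 0.117).

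VGLL3, which competes with YAP and TAZ for TEAD, was 372, 191, 85.8 and 608 in control and 966, 1187, 588 and 1162 in IUGR. Control replicate 4 lay above IUGR replicate 3, and the difference was 1.93 ± 0.61 (SE; adjusted p = 0.209). YWHAB, a phosphoserine-binding adaptor that can hold YAP in the cytoplasm, and CSNK1D, a casein kinase that takes part in YAP degradation, differed by 0.26 and 0.39. The groups did not overlap for either (adjusted p = 0.194 and 0.222).

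Other YAP and TEAD target genes were measured for 25 of 29, with 15 higher and 10 lower in value. At an unadjusted p under 0.05 there were 8 of 25, against 15.9% of all genes. Of these 8, 5 were higher and 3 lower, against 8.20% and 7.68% of all genes. F3 was at or near the floor in control, at 5.89 to 7.36 intensity units, and rose in IUGR to 73.0, 383, 149 and 278 (log2 difference 4.86 ± 0.50, SE; limma, adjusted p = 0.0443). Over the 21 alternative settings that held it, its adjusted p-values in limma ran from 0.0214 to 0.514, and it missed the threshold in 13. Among these 13 were the fit over all rows, in which 0 of 15380 passed, and leaving out any 1 of control replicates 1 to 3 or IUGR replicates 2 to 4. DOCK5, an activator of the GTPase RAC, was 6.90 to 14.5 in control, and in IUGR 25.1 and 15.9 in replicates 1 and 3 and 155 and 131 in replicates 2 and 4. Its difference was 2.52 (adjusted p = 0.210).

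The targets with lower values included genes that endothelial cells express. EDN1, the endothelin-1 precursor gene, was 3182, 2895, 1877 and 1368 in control and 353, 228, 1619 and 257 in IUGR (log2 difference -2.37 ± 0.66, SE; adjusted p = 0.171). ANGPT2, an endothelial ligand of the TIE2 receptor, was 302, 734, 228 and 108 in control. In IUGR it was 41.1, 7.25, 172 and 8.04, with replicates 2 and 4 below the olfactory receptor level, the arrays that also had the lowest endothelial markers. Its difference was -3.42 (adjusted p = 0.223). The median of the 25 target genes was 0.08.

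Among the other CCN genes, relatives of CTGF and CYR61, NOV (CCN3) was 392, 934, 1329.5 and 851 intensity units in control and 80.9, 1153, 35.9 and 53.7 in IUGR. IUGR replicate 2 lay within the control range and the other 3 IUGR arrays below it, so the groups overlapped (log2 difference -2.79 ± 1.11, SE; limma, adjusted p = 0.294). WISP1 (CCN4) and WISP2 (CCN5) differed by 0.11 and 0.01, and WISP3 (CCN6) lay below the olfactory receptor level on every array, with a difference of 0.08.

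Actin and serum response factor (SRF) target genes, which answer to the same mechanical cues as YAP, were higher in value for 14 of 19, with a median difference of 0.35. The list shares ACTA2, TAGLN and CNN1 with the smooth muscle markers, so it is not independent of them. Of the 19, an unadjusted p under 0.05 was reached by 2, both higher (10.5% against 15.9% of all genes). CNN2, an actin-binding calponin, was 646 to 900.5 intensity units in control and 941 to 1362 in IUGR, without overlap (log2 difference 0.53 ± 0.15, SE; limma, adjusted p = 0.176). FHL2, a LIM protein of stress fibres and the nucleus, was 61.8 to 237 in control and 206 to 450.5 in IUGR (difference 1.49; adjusted p = 0.194). MKL2, an SRF coactivator gene, and TPM1, a tropomyosin gene, differed by -0.38 and 1.22. TPM1 was 4563 in control replicate 4, where the summed smooth muscle markers were highest, and 679 to 1354 in the other controls.

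**Figure D5:**
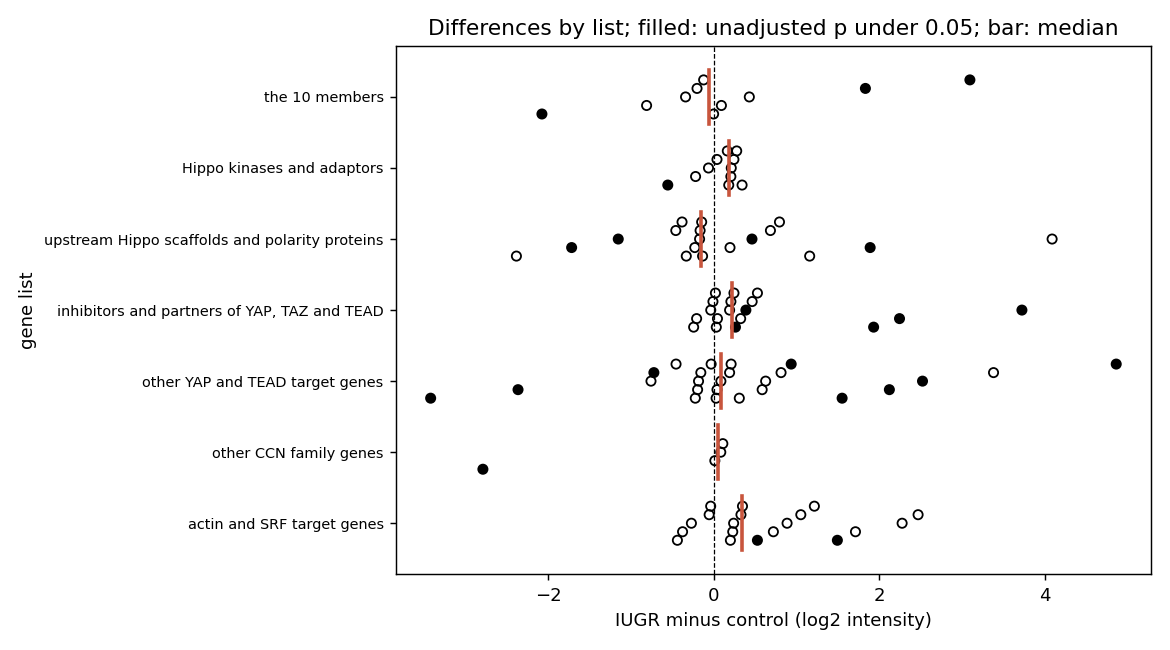
IUGR minus control on the log2 scale (horizontal axis) for the 10 genes and for the measured genes of 6 pathway lists (vertical axis); each point is 1 gene, filled points have an unadjusted p under 0.05 in limma, and vertical bars are list medians. The Hippo kinases lie between -0.56 and 0.34, while the target and scaffold lists spread to both sides of 0.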

How the data were processed

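RNA of 8 cultures, 4 per group, was measured on 1-colour arrays. The authors deposited 1 table of linear intensity, with a row per gene symbol or gene number. Per the labels' protocols, the arrays were hybridised with biotin-labelled cRNA made after Affymetrix's manual. Background correction, probe summary and normalization are not given in the sources used here. Array medians were 37.7 to 41.1, so no further normalization was made. The number of arrays limits the precision. The p-values set each group difference against the spread between these cultures, moderated over all genes.

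Rows were named through NCBI RefSeq (ARS-UI_Ramb_v3.0, names only): 12809 by symbol, 51 by synonym and 109 by gene number, while 1613 kept their name and 798 without a symbol were left out. Of 5 duplicated genes the row with the higher mean was kept. Values were raised to the 10th percentile, 5.89 units, before log2 was taken, which understates differences of dim genes. The groups, taken from the treatment label, were compared with limma 3.58.1 in R 4.3.3 (lmFit, eBayes, two-sided, no covariate), with Benjamini-Hochberg adjustment over 14577 genes and a threshold of 0.05. The script was tested on simulated data.

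The 10 genes were picked by name, while the pathway lists and markers were chosen with earlier results of these data known. Named were the 10 genes, list genes past the threshold, up to 4 per list with the smallest p, and the 3 most alike genes for YAP1, WWTR1, CTGF, CYR61 and ANKRD1. The markers PECAM1, CDH5, DCN, WT1 and MSLN were also named by the rule. PECAM1, an adhesion molecule of endothelial junctions, ran from 788 to 2995 intensity units in control and 9.89 to 725 in IUGR. DCN, a matrix proteoglycan, was 7.60 to 279 and 1161 to 2351, and MSLN, mesothelin, was 20.1 to 42.8 and 33.0 to 720. Alternatives covered normalization, log scale, filter, gene level, prior, array weights, passage, the title's leading number as a block, and left-out arrays.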

Additional observations from a re-analysis of the deposited data

Results flagged for a closer look

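In groups of 4, a highest or lowest array was marked where its gap to the nearest other array, as a share of the group's range, was above Dixon's 95% critical value, which chance gives in about 5% of groups. Of 78 groups 7 were marked, each given here as a log2 value. CTGF and CYR61 were both low in control replicate 3, at 11.35 and 10.03, against 12.17 to 12.28 and 11.14 to 11.28 in the other controls. RUNX2 was 6.04 in control replicate 4 and 2.56 to 2.96 in the other controls. STK3 was 7.16 in control replicate 1 and 6.84 to 6.88 in the others. MAP4K4 was 8.05 in IUGR replicate 2 and 7.67 to 7.69 in the other IUGR arrays. The summed smooth muscle markers were 10.40 in IUGR replicate 4 and 12.72 to 13.07 in the others, and the summed leukocyte markers were 10.22 in IUGR replicate 3 and 7.77 to 8.11 in the others. Among the leukocyte markers, LAPTM5 was 987 intensity units in IUGR replicate 3 and 9.80 to 130 in the other IUGR arrays.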

How the results depend on the processing

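Over 22 alternatives WWTR1 stayed lower (-3.54 to -0.85, unadjusted p under 0.05 in 22, adjusted in 2), TEAD1 higher (1.66 to 4.60, 19 and 1) and ANKRD1 higher (0.99 to 2.19, 17 and 0). The passage fit among these alternatives extrapolates, as the passages of the groups did not overlap. With the title's leading number as a random block the 3 differences were -2.08, 3.10 and 1.83. The correlation estimated within a number was 0.0016, so this fit could hardly differ from the main fit. The endothelial score as a covariate was added after seeing the data, as was the count at an unadjusted p. The differences of the 7 genes not past an unadjusted p of 0.05 in limma changed sign in some settings, none past the adjusted threshold. The largest of these differences in the main fit was -0.81, for CTGF, and the cause was not tested. Without IUGR replicates 2 and 4 those of CTGF, CYR61, TEAD2, TEAD4 and AMOTL1 were 0.10, 0.092, 0.10, -0.056 and 0.069. Without these and control replicate 4 they were 0.15, 0.17, 0.25, -0.12 and 0.12, with YAP1 at 0.078. With the endothelial score they were 0.59, 0.29, 0.26, -0.21 and 0.041, with AMOTL2 at -0.035. AMOTL2 was -0.41 with passage, and AMOTL1 was 0.029 with array weights. When 1 array was left out, AMOTL2 ran from -0.085 without control replicate 3 to 0.20 without control replicate 4. AMOTL1 ran from -0.17 without control replicate 3 to 0.13 without control replicate 1, and was above 0 also without control replicate 4 and without IUGR replicates 3 or 4. Of the 10 genes 3 had an unadjusted p under 0.05, but 1 with passage, with the endothelial score or without IUGR replicates 2 and 4, and 2 to 4 when 1 array was left out. The count over all genes at that level, 2315, was 1310 among genes at or above the median gene, 1238 with passage and 1085 with the endothelial score, and 1727 to 2679 when 1 array was left out. At the adjusted threshold the 10 genes became 19 after quantile normalization, 3 after median centring, 61 with log2(value + 1), 52 at or above the median gene, 1 with a trended prior and 74 with array weights. There were 0 with log2(value + 32), all rows, a robust prior, passage, the endothelial score or without IUGR replicates 2 and 4, and 325 without these and control replicate 4. Leaving out 1 array gave 0 to 369, the highest without control replicate 4. No paired analysis was possible because the labels give no replicate numbers shared between the groups. The table holds no detection calls, so signal over background is known only through the olfactory receptor level.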

Other observations

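Some pathway genes outside the naming rule, picked after their values were seen, stood apart in few arrays. FAT1, a giant protocadherin related to FAT4, ran from 4.18 to 5.74 intensity units in control replicates 1 to 3. It was 1018 in control replicate 4 and 168 to 711 in IUGR, with a log2 difference of 4.09 (limma, unadjusted p = 0.0551). FAT4 itself was 18.5 and 12.1 in IUGR replicates 2 and 4 and 187 to 371 in the other 6 arrays. WWC2, a relative of WWC1, went the other way, with 729.8 and 595 in those 2 arrays and 84.4 to 145 elsewhere. INHBA, the activin A subunit gene, ran from 21.4 to 28.3 in controls 1 to 3, with 842 in control replicate 4 and 99.1 to 1787 in IUGR. ACTA2, smooth muscle actin, was 88.1 to 396 in controls 1 to 3 and 8705 in control replicate 4, and 316 in IUGR replicate 4 against 1663 to 4445 in the other IUGR arrays.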
